A study of Homo sapiens and Mus musculus with 29 samples.

Results

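The genes described here carry, make, break down and sense retinoids, and were measured by RNA-seq in xenografts of HPAF-II, a human pancreatic ductal adenocarcinoma cell line. They are 9 of the 58719 genes in the expression table and were taken by gene symbol: RBP4, STRA6, CRABP2, DHRS3, ALDH1A1, ALDH1A3, CYP26A1, CYP26B1 and RARB. RBP4 was listed because it changed with HNF4G-KO and CRABP2 because it changed with metastasis, so the values behind those choices are given as a description with no test. The cells were injected into the pancreas of NSG mice, which lack functional lymphocytes and were obtained at about 8 weeks of age. Every genotype was derived with CRISPR Cas9 and every one without a FOXA1 vector carried an empty vector (EV). Control tumors (Cas-9-EV) came from 3 mice, HNF4G-KO tumors (HNF4G KO-EV) from 4 mice, FOXA1-OE tumors (Cas-9 with lentiviral FOXA1) from 3 mice, and HNF4G-KO + FOXA1-OE gave 5 tumors from 4 mice, of which tumors 2 and 3 shared a mouse. The 6 metastases all came from the HNF4G-KO genotypes. The 2 HNF4G-KO metastases were peritoneal and came from the mice of tumors 2 and 4. HNF4G-KO + FOXA1-OE metastases 1 (spleen) and 2 (fat) came from the mouse of tumor 1, metastasis 3 (fat) from a mouse with no tumor library, and metastasis 4 (peritoneum) from the mouse of tumor 4. According to the study's methods, the HNF4G-KO line was a pool of single-cell clones found to be knockouts. The methods describe their frameshift mutations as heterozygotic and checked by Sanger sequencing, and also name the pool HNF4G−/−.

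Vitamin A travels in blood as retinol bound to RBP4 and can enter cells through the receptor STRA6. Inside the cell, retinol is oxidized to retinal, which DHRS3 can reduce back to retinol, and aldehyde dehydrogenases of the ALDH1A family turn retinal into retinoic acid. CRABP2 delivers retinoic acid to its nuclear receptors, among them RARB, and the CYP26 enzymes degrade it. RARB, CYP26A1 and DHRS3 are themselves textbook target genes of retinoic acid.

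Levels are given as RPKM, the reads of a gene scaled to its length and to the size of the library, and differences are on the log2(RPKM + 1) scale with their standard error (SE). Tests used limma with Benjamini-Hochberg adjustment over every gene that averaged 1 RPKM or more, and a gene was called at an adjusted p under 0.05. Tumors that shared a mouse were averaged, as were metastases that did, so n counts mice. The filter passed 5 members in the primary tumors and in the metastasis comparison (RBP4, CRABP2, DHRS3, ALDH1A1 and ALDH1A3), and left out 4 (STRA6, RARB, CYP26A1 and CYP26B1). In these bulk samples, fewer cells that express a gene and less RNA per cell cannot be told apart.

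The 21 HPAF-II libraries held 33.1 to 69.6 M reads each. HNF4G mRNA, which a frameshift need not lower, was 5.72 to 8.42 RPKM in the tumors labelled HNF4G-KO against 2.48 to 3.47 in the control tumors, and 1.69 to 7.09 in the tumors labelled HNF4G-KO + FOXA1-OE against 0.50 to 3.04 in the FOXA1-OE tumors, so the reads do not check the knockout. FOXA1 was 6.32 and 8.18 RPKM in FOXA1-OE tumors 1 and 2, but 0.76 in the library labelled FOXA1-OE tumor 3, inside the control range of 0.52 to 0.93. Among the HNF4G-KO + FOXA1-OE metastases, FOXA1 was 17.9 RPKM in metastasis 2 and 0.53, 1.3 and 1.55 in metastases 1, 3 and 4. Group names below follow the labels. The 8 epithelial markers summed to between 3629 and 6458 RPKM in every library. Of the host markers, those of the exocrine and endocrine pancreas summed to 557 RPKM in control tumor 2 and to at most 41.1 in the other libraries.

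The promoters of the 4 members below are shown because RBP4 and CRABP2 were listed for their changes, and because RARB and CYP26A1 hold the direct repeat through which retinoic acid receptors are known to bind DNA. Sequences are from RefSeq (GRCh38.p14), run 5′ to 3′ on the gene's strand and end at the base before the annotated start. Capitals mark the repeat searched, GTTCA followed after 6 bases of any kind by GTTCA, on either strand.
RBP4 (chr10:93601236-93601485, minus strand): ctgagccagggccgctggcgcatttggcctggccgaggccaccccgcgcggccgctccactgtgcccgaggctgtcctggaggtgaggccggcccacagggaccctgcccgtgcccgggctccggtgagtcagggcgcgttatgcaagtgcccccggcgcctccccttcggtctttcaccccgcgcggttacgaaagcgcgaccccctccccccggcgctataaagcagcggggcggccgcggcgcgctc
CRABP2 (chr1:156705785-156706034, minus strand): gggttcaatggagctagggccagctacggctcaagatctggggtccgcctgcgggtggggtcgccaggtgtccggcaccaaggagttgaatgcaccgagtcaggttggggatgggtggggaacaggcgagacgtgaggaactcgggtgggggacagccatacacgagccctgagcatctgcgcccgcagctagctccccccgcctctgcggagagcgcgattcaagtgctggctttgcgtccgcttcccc
RARB (chr3:25428163-25428262, plus strand): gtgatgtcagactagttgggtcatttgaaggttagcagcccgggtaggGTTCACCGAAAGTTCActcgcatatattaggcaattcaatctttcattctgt
CYP26A1 (chr10:93073773-93073892, plus strand): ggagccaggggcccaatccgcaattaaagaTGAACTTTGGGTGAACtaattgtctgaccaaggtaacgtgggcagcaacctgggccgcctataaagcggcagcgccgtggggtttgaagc

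All 9 members matched a promoter window, and the window nearest to the GENCODE 44 canonical start was read, from 250 bases before to 50 after the start. For CRABP2 the start of that window lay 201 bases from the canonical start, and for the other members it was the canonical start. The bases just before the canonical start of CRABP2 were therefore not all read. The repeat lay 52 to 37 bases before the start of RARB on the gene's strand and 90 to 75 bases before that of CYP26A1 on the opposite strand. It was in 20 of 35116 promoter windows (0.057%) and in no window read for the other 7 members. Of the other motifs searched on both strands, the HNF4-type CAAAGTCCA occurs in 0.384% and CAAAGGTCA in 0.407% of windows, and the forkhead-type TGTTTAC in 3.42% and TGTTTGC in 3.89%; none was in a window read for the members. The match is one of letters only, and binding was not measured here.

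RBP4 is the secreted carrier of retinol. Its level was 6.92, 8.06 and 7.15 RPKM in the control tumors and 52.6, 37.5, 35.9 and 37.1 in the HNF4G-KO tumors. The groups did not overlap, and the means were 7.38 ± 0.60 (SD, n = 3) and 40.8 ± 7.90 (SD, n = 4), a ratio of 5.53. This is the comparison on which RBP4 was chosen, with a difference of 2.30 ± 0.29 (log2, SE). Of all 14269 genes tested, 6.18% were called higher in it and 25.1% were higher without overlap between the groups.

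The rule behind the choice names HNF4G-KO without a comparison, so the tumors with added FOXA1 may also have entered it, and the tests of RBP4 between those groups are no independent support. RBP4 was 2.48, 5.48 and 3.63 RPKM in the FOXA1-OE tumors and 84.0, 40.7, 63.3, 30.3 and 44.8 in HNF4G-KO + FOXA1-OE tumors 1 to 5. Every HNF4G-KO + FOXA1-OE tumor was higher than every FOXA1-OE tumor. RBP4 was higher by 3.41 ± 0.29 (log2, SE; limma adjusted p = 5.0e-05), with means of 52.5 ± 22.7 (SD, n = 4) against 3.86 ± 1.51 (SD, n = 3). Without FOXA1-OE tumor 3, whose FOXA1 was at the control level, the difference was 3.40 (limma adjusted p = 0.000407). In this comparison 3.32% of genes were called higher, and 5.39% were higher with no overlap. With 3 mice against 4 an exact permutation test cannot go below p = 0.0571, which is the value it gave for RBP4.

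The FOXA1-OE tumors had the lowest RBP4 of all groups. They lay below the 3 control tumors, with a difference of -0.83 ± 0.31 (log2, SE), and 3.55% of genes were lower without overlap in that comparison. Since it uses the control tumors on which RBP4 was chosen, it was not tested. HNF4G-KO + FOXA1-OE tumors stood 2.58 ± 0.29 above control (6.78% of genes were higher without overlap there) and overlapped the HNF4G-KO tumors, with a difference of 0.28 ± 0.27 (log2, SE).

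RBP4 stayed in that high range in the metastases. It was 51.5 and 52.1 RPKM in the HNF4G-KO metastases and 120, 76.0, 36.4 and 66.3 in HNF4G-KO + FOXA1-OE metastases 1 to 4. Ordered by their means, the groups ran from FOXA1-OE tumors through control tumors, HNF4G-KO tumors, HNF4G-KO metastases and HNF4G-KO + FOXA1-OE tumors to HNF4G-KO + FOXA1-OE metastases. Control tumors overlapped neither the FOXA1-OE tumors below them nor the HNF4G-KO tumors above them, and from the HNF4G-KO tumors upward all neighbors overlapped. In the 4 mice with both a tumor and a metastasis library, RBP4 was higher in the metastasis in all 4, by 0.18 to 1.10 on the log2 scale, which was not tested.

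Hepatocytes are the main source of RBP4 in the body, so liver markers were read beside it. Their sum over 8 genes was 109 to 143 RPKM in control, 91.2 to 154 in FOXA1-OE, 18.1 to 20.6 in HNF4G-KO and 17.4 to 39.1 in HNF4G-KO + FOXA1-OE tumors, and 3.13 to 13.3 in the metastases. SERPINA1, which carcinoma cells can also express, gave most of the sum (122 ± 17.4 RPKM in control and 17.9 ± 0.99 in HNF4G-KO tumors, SD). The sum therefore mainly follows that gene, and how mouse reads were handled is not given. The part of liver cells in the level of RBP4 was not tested. ALB, the defining hepatocyte transcript, was at most 0.08 RPKM in every tumor except HNF4G-KO + FOXA1-OE tumor 5 (11.6), which had 44.8 RPKM of RBP4.

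**Figure D1:**
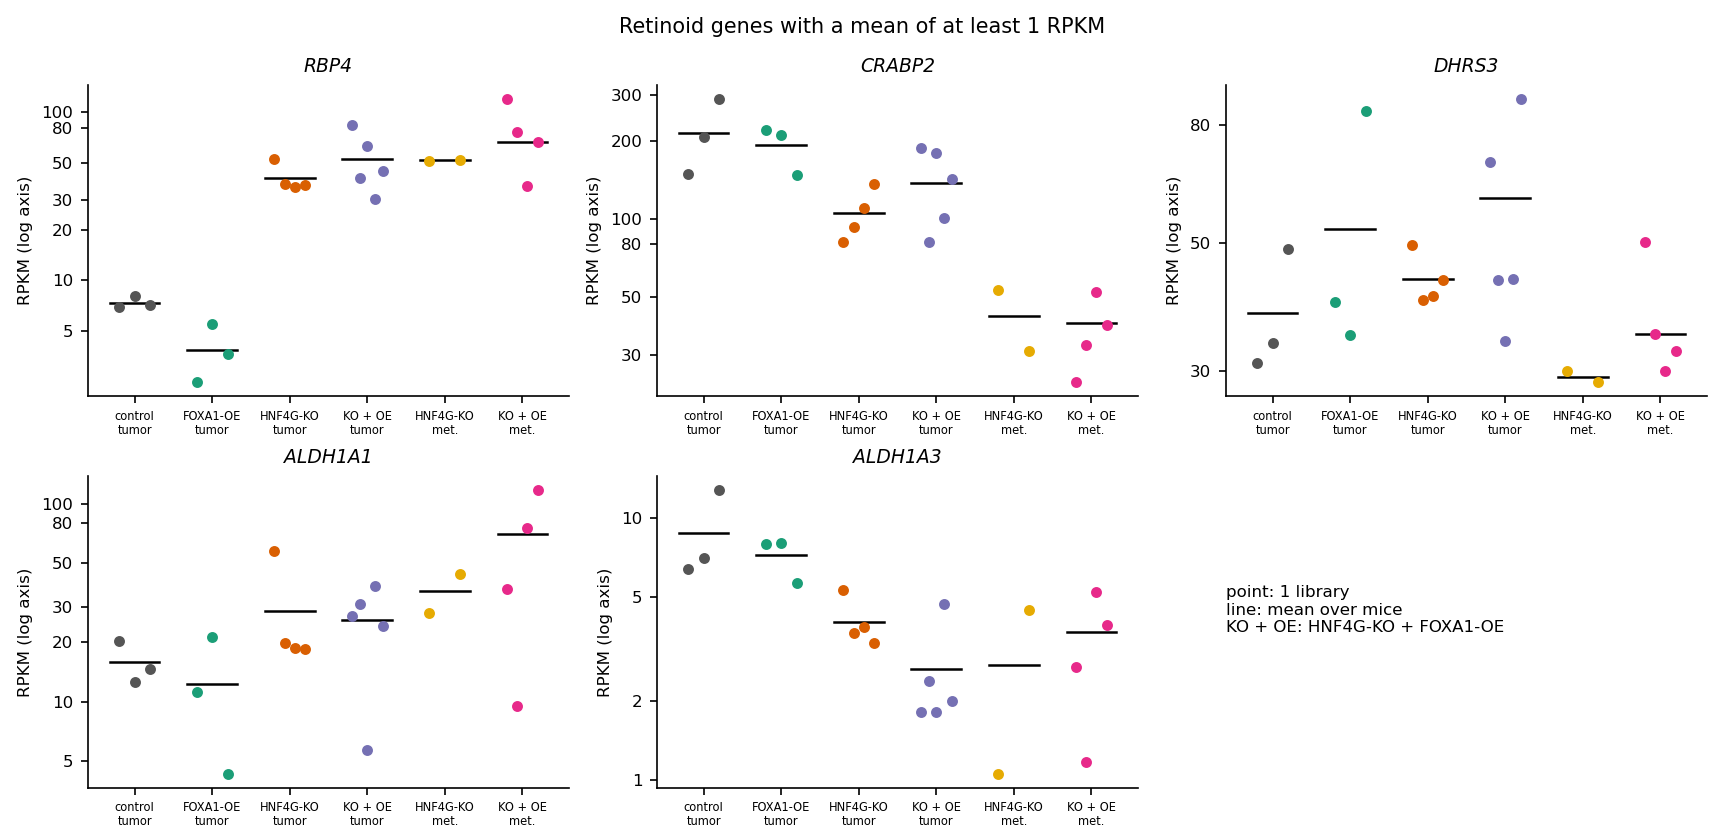
Level (RPKM, log axis) of RBP4, CRABP2, DHRS3, ALDH1A1 and ALDH1A3 in each of the 21 HPAF-II libraries, by group; points are libraries and lines are means over mice (KO + OE is HNF4G-KO + FOXA1-OE, met. is metastasis). RBP4 is under 10 RPKM in control and FOXA1-OE tumors and at 30.3 RPKM or more in all other libraries, while CRABP2 is lowest in the metastases.

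STRA6, the cell-surface receptor that takes up retinol from RBP4, was below 1 RPKM in every library. Control tumors had 0.13, 0.10 and 0.33 RPKM, FOXA1-OE tumors 0.18, 0.16 and 0.22, and HNF4G-KO tumors 0.47, 0.38, 0.56 and 0.60. HNF4G-KO + FOXA1-OE tumors 1 to 5 spread from 0.93, 0.34 and 0.07 to 0.28 and 0.59. These levels stand for 26 to 126 reads per library in control, 171 to 294 in HNF4G-KO and 30 to 368 in HNF4G-KO + FOXA1-OE tumors. Every HNF4G-KO tumor was above every control tumor, which was so for 25.1% of the genes that passed the filter, and the exact permutation test gave p = 0.0571, the smallest possible for 4 mice against 3 (0.291 after Benjamini-Hochberg adjustment over the 51 exact tests of the members). In the metastases STRA6 was 0.13 and 0.06 RPKM (HNF4G-KO) and 0.13, 0.24, 0.09 and 0.06 (HNF4G-KO + FOXA1-OE). It was lower in the metastasis than in the tumor in all 4 mice that had both, by 0.27 to 0.70 on the log2 scale. The group tests gave an exact permutation p of 0.133 (HNF4G-KO, 2 mice against 4) and 0.0571 (HNF4G-KO + FOXA1-OE, 3 mice against 4), both the smallest these numbers of mice allow, and 0.378 and 0.291 after adjustment. Mice that gave both a tumor and a metastasis count in both groups, and these tests ignore that pairing.

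CRABP2, the intracellular carrier that hands retinoic acid to its receptors, had the highest level of the 9 members per kilobase in the tumors. Control tumors had 149, 206 and 291 RPKM and FOXA1-OE tumors 220, 210 and 148. FOXA1-OE did not shift it beyond the spread, with a difference of -0.13 ± 0.29 (log2, SE; limma adjusted p = 0.917), which was 0.05 without FOXA1-OE tumor 3. HNF4G-KO tumors had 81.3, 93.3, 111 and 136 RPKM, all below the control tumors, and HNF4G-KO + FOXA1-OE tumors 188, 81.6, 180, 101 and 143. Without a test, since CRABP2 was chosen on comparisons that share these tumors, the difference was -0.997 ± 0.27 (log2, SE) for HNF4G-KO against control (21.3% of genes were lower without overlap) and -0.62 ± 0.27 for HNF4G-KO + FOXA1-OE against control, where the groups overlapped.

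Every metastasis had less CRABP2 than every tumor. The HNF4G-KO metastases had 53.5 and 31.1 RPKM, against 81.3 or more in the tumors of that genotype. HNF4G-KO + FOXA1-OE metastases 1 to 4 had 23.6, 32.9, 52.3 and 39.1 RPKM, against 81.6 or more. The tumor means were 2.49 times (HNF4G-KO) and 3.48 times (HNF4G-KO + FOXA1-OE) those of the metastases, and the differences were -1.32 ± 0.32 and -1.78 ± 0.28 (log2, SE). These are the values on which CRABP2 was chosen. Of all genes, 21% (HNF4G-KO) and 2.41% (HNF4G-KO + FOXA1-OE) were lower in the metastases with no overlap, and 0.0426% and 0.00709% were called lower. Metastasis 2, the only HNF4G-KO + FOXA1-OE metastasis with FOXA1 above the range of the HNF4G-KO tumors, was no exception with 32.9 RPKM.

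Within mice, CRABP2 went from 93.3 to 53.5 and from 136 to 31.1 RPKM in the 2 HNF4G-KO mice, and from 188 to 27.9 (metastases 1 and 2 averaged) and from 101 to 39.1 in the 2 HNF4G-KO + FOXA1-OE mice. Without the metastases in fat, the difference in HNF4G-KO + FOXA1-OE was -2.11 (log2), and without the spleen metastasis -1.70. Stromal markers summed over 10 genes to 39.3 to 58.3 RPKM in HNF4G-KO, 35.6 to 95.7 in HNF4G-KO + FOXA1-OE and 44.8 to 160 in control tumors. The sum was 59.3 and 335 RPKM in the HNF4G-KO metastases. It was 84.7, 57.5, 185 and 176 in HNF4G-KO + FOXA1-OE metastases 1 to 4, so some metastases lay within or near the range of the tumors and the metastases in fat differed between themselves. The 12 adipose markers summed to 54.3 to 109 RPKM in HNF4G-KO + FOXA1-OE metastases and 49.3 to 153 in tumors of that genotype. One of them, the adipocyte transcript ADIPOQ, was at most 0.01 RPKM in every library, including the metastases labelled as in fat. How mouse reads were handled is not given, so this does not show that host fat was absent. The part of other cells in the CRABP2 result was not tested.

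**Figure D2:**
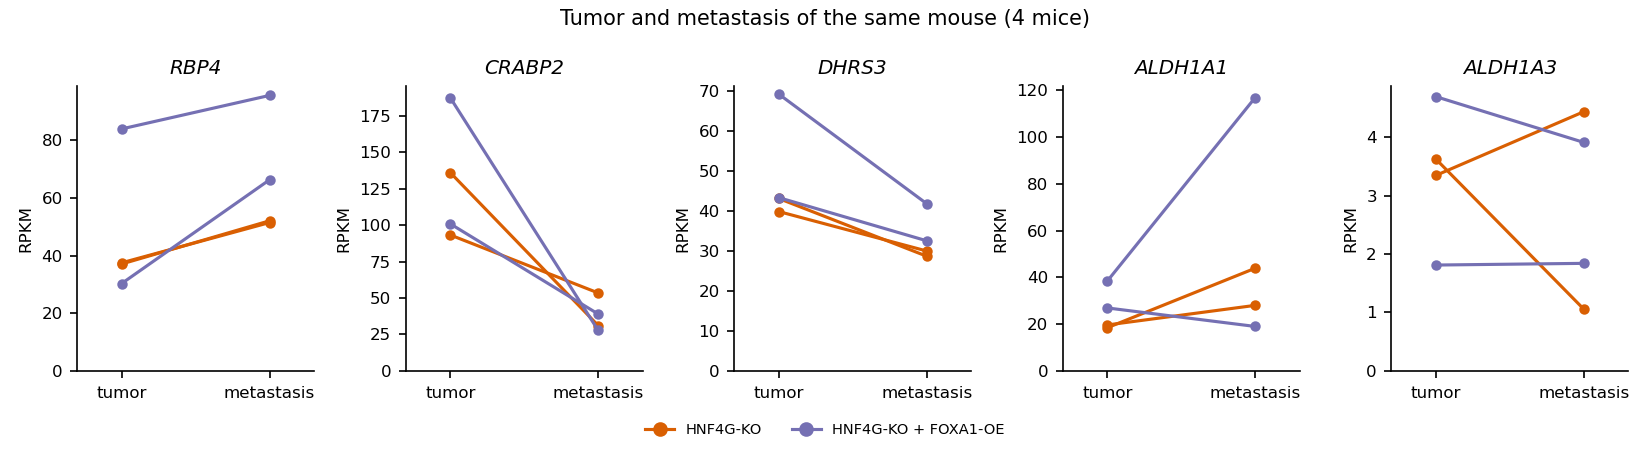
Level (RPKM, linear axis from 0) in the tumor and the metastasis of the same mouse, 1 line per mouse, for the 2 HNF4G-KO and the 2 HNF4G-KO + FOXA1-OE mice with both. CRABP2 and DHRS3 are lower and RBP4 is higher in the metastasis in all 4 mice, while ALDH1A1 and ALDH1A3 go both ways.

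DHRS3 reduces retinal to retinol and so limits the supply for retinoic acid synthesis. It was 30.9, 33.5 and 48.9 RPKM in the control tumors, 39.5, 34.6 and 84.6 in FOXA1-OE, 49.7, 39.8, 40.5 and 43.1 in HNF4G-KO, and 69.2, 43.2, 33.9, 43.3 and 89.0 in HNF4G-KO + FOXA1-OE tumors. All these groups overlapped, and no comparison of the tumors called it. The largest difference, HNF4G-KO + FOXA1-OE against control, was 0.60 ± 0.33 (log2, SE; limma adjusted p = 0.342).

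In the metastases DHRS3 was 29.96 and 28.7 RPKM (HNF4G-KO) and 50.1, 34.8, 29.98 and 32.5 (HNF4G-KO + FOXA1-OE). Both HNF4G-KO metastases lay below all 4 tumors of that genotype, as did 21% of all genes. Over both genotypes the difference was -0.62 ± 0.19 (log2, SE), which did not pass (limma adjusted p = 0.343; 0.130 with the mouse as a block). The direction was the same in all 4 mice with both libraries, with differences of -0.71 to -0.40 on the log2 scale.

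ALDH1A1 and ALDH1A3 oxidize retinal to retinoic acid, of which only ALDH1A3 was called in any comparison. It was 6.37, 7.04 and 12.8 RPKM in the control tumors and 7.93, 8.004 and 5.66 in the FOXA1-OE tumors. It was 5.29, 3.62, 3.84 and 3.34 in the HNF4G-KO tumors and 1.81, 2.38, 1.81, 4.69 and 2.00 in HNF4G-KO + FOXA1-OE tumors 1 to 5. Every tumor with HNF4G-KO was lower than every tumor without it, where 21.3%, 9.22% and 12.1% of genes were lower without overlap in the 3 comparisons that follow.

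ALDH1A3 fell in all 3 comparisons that set tumors with HNF4G-KO against tumors without. The difference was -0.91 ± 0.27 for HNF4G-KO against control (log2, SE; limma adjusted p = 0.042), -1.22 ± 0.27 for HNF4G-KO + FOXA1-OE against FOXA1-OE (adjusted p = 0.014) and -1.42 ± 0.27 for HNF4G-KO + FOXA1-OE against control (adjusted p = 0.010). The first and the third share the control tumors, and the second and the third share the HNF4G-KO + FOXA1-OE tumors. The background was 5.99%, 4.54% and 2.55% of genes called lower. The call against control for HNF4G-KO was lost without any 1 of control tumors 2 and 3 and HNF4G-KO tumors 2, 3 and 4 (adjusted p 0.0942 to 0.197), and the direction held throughout. The call of ALDH1A3 in the second was lost without FOXA1-OE tumor 1 (adjusted p = 0.0616) and in the third without control tumor 3 (adjusted p = 0.0658). Without FOXA1-OE tumor 3 the second stood at -1.36 (adjusted p = 0.0167). Exact permutation tests gave p = 0.0571 in each of the 3, the smallest that 4 mice against 3 allow. In the metastases ALDH1A3 was 1.06 and 4.43 RPKM (HNF4G-KO) and 2.71, 1.18, 5.23 and 3.91 (HNF4G-KO + FOXA1-OE), within or near the range of the tumors.

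ALDH1A1 had the largest standard error of the expressed members in every comparison. It was 20.2, 12.5 and 14.6 RPKM in the control tumors and 57.4, 19.7, 18.5 and 18.5 in the HNF4G-KO tumors, so that the difference of 0.66 ± 0.48 (log2, SE; limma adjusted p = 0.375) was 0.27 without tumor 1. FOXA1-OE tumors had 11.1, 21.2 and 4.32 RPKM and HNF4G-KO + FOXA1-OE tumors 26.9, 31.0, 5.66, 38.4 and 24.0. The difference between those groups was 1.16 ± 0.48 (limma adjusted p = 0.163), and 0.62 without FOXA1-OE tumor 3. Tumors 2 and 3 of HNF4G-KO + FOXA1-OE came from a single mouse and had 31.0 and 5.66 RPKM.

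The metastases spanned most of the range of ALDH1A1. HNF4G-KO metastases had 28.0 and 43.9 RPKM, and HNF4G-KO + FOXA1-OE metastases 1 to 4 had 37.2, 9.49, 75.5 and 117. The spleen and fat metastases of the same mouse (37.2 and 9.49) stood apart. ALDH1A1 was higher in the metastasis in 3 of the 4 mice with both, and the difference over both genotypes was 0.82 ± 0.42 (log2, SE; limma adjusted p = 0.652).

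**Figure D3:**
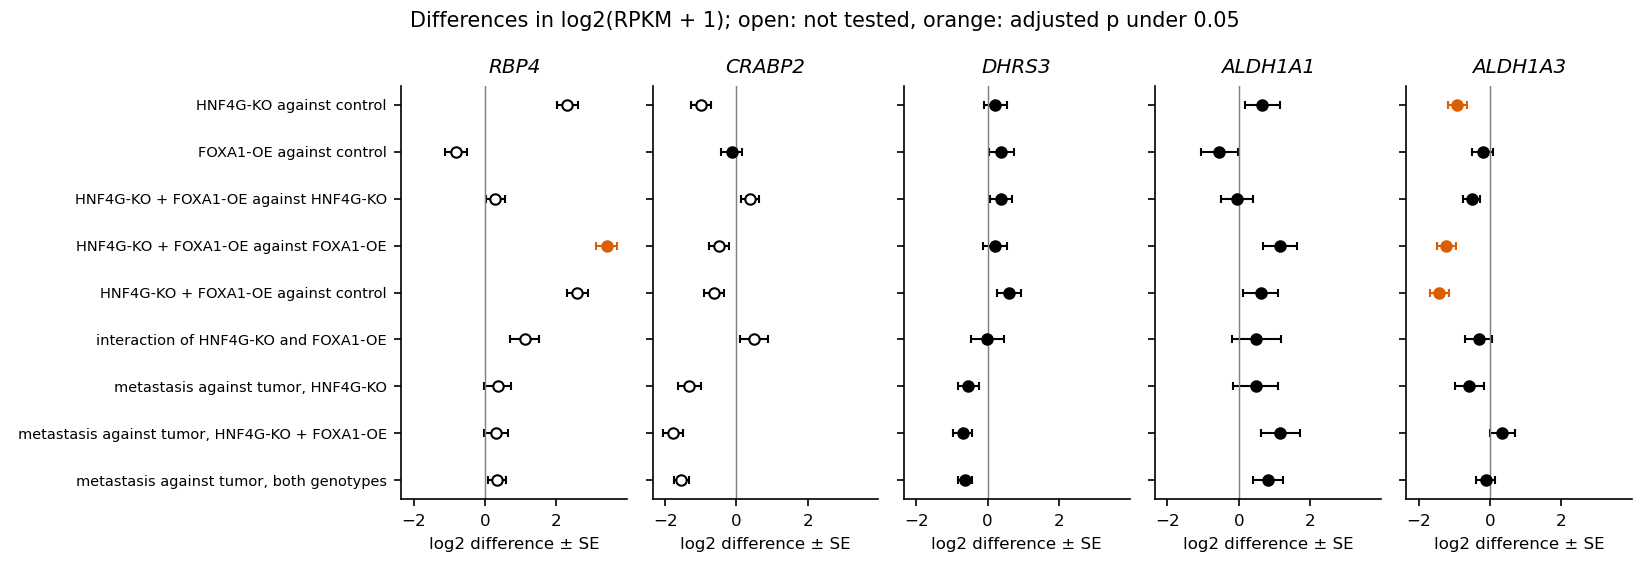
Differences in log2(RPKM + 1) with their SE for the 5 expressed members in the 9 comparisons; open points were not tested because the gene was chosen on those samples, filled points were tested and orange points passed an adjusted p under 0.05. RBP4 in HNF4G-KO + FOXA1-OE against FOXA1-OE and ALDH1A3 in 3 comparisons are the calls. The tumors behind the RBP4 call may have entered its choice, so that call is no independent support.

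Counting only members that could be tested, limma called 1 of 3 in HNF4G-KO against control, where 12.2% of all genes were called, 2 of 4 in HNF4G-KO + FOXA1-OE against FOXA1-OE (7.86%; 1 of 3 leaving aside RBP4), and 1 of 3 in HNF4G-KO + FOXA1-OE against control (4.7%). It called 0 of 4 in FOXA1-OE against control, where it called 0 of 14269 genes and 652 had an unadjusted p under 0.05. It also called 0 of 3 in HNF4G-KO + FOXA1-OE against HNF4G-KO (0.0561% of genes), in the interaction (0.035%) and in the metastasis comparisons (0.0426%, 0.00709% and 0.135%). In these comparisons without a call, DHRS3 alone had an unadjusted limma p under 0.05, in metastasis against tumor of HNF4G-KO + FOXA1-OE (0.0170) and of both genotypes (0.00683). Of all 14099 genes tested, 1356 and 1190 had one in these 2 comparisons. The interaction, which asks whether HNF4G-KO acted differently with and without FOXA1-OE, was -0.31 ± 0.38 for ALDH1A3, 0.50 ± 0.69 for ALDH1A1 and -0.01 ± 0.46 for DHRS3 (log2, SE; limma adjusted p of 0.876, 0.894 and 0.999).

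RARB, a receptor for retinoic acid and the carrier of the repeat shown above, was below 1 RPKM in all libraries. It was 0.24, 0.23 and 0.04 RPKM in the control tumors, 0.14, 0.15 and 0.09 in the FOXA1-OE tumors and 0.17, 0.16, 0.19 and 0.22 in the HNF4G-KO tumors. HNF4G-KO + FOXA1-OE tumors 1 to 5 had 0.997, 0.60, 0.66, 0.28 and 0.29 RPKM, or 36 to 190 reads each, above every other tumor. Of the genes that passed the filter, 3.01% were higher without overlap against HNF4G-KO, 5.39% against FOXA1-OE and 6.78% against control tumors. Against HNF4G-KO tumors the exact permutation test gave p = 0.0286, the smallest for 4 mice against 4, and against FOXA1-OE and against control tumors p = 0.0571, the smallest there; all 3 came to 0.291 after adjustment over the 51 tests. With no filter on low values, limma gave adjusted p of 0.372, 0.133 and 0.254 for these comparisons. FOXA1 was 11.99, 5.76, 23.2, 6.50 and 4.65 RPKM in the same 5 tumors.

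In the metastases RARB was 0.03 and 0.13 RPKM (HNF4G-KO) and 0.11, 0.08, 0.07 and 0.10 (HNF4G-KO + FOXA1-OE), or 7 to 24 reads. All 4 HNF4G-KO + FOXA1-OE metastases lay below all tumors of that genotype, which was so for 2.41% of the genes that passed the filter (exact permutation p = 0.0571, the smallest for 3 mice against 4; 0.291 adjusted). The test ignores that some of these mice gave both a tumor and a metastasis. It was lower in the metastasis in all 4 mice with both libraries. Metastasis 2, with 17.9 RPKM of FOXA1, had 0.08 RPKM of RARB.

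CYP26A1 and CYP26B1 degrade retinoic acid, and both were barely detected. CYP26A1 ran from 0.01 RPKM (1 read) in HNF4G-KO metastasis 1 to 1.04 RPKM (127 reads) in HNF4G-KO metastasis 2. In the tumors it was 0.53, 0.17 and 0.02 RPKM in control, 0.28, 0.39 and 0.03 in FOXA1-OE, 0.27, 0.60, 0.10 and 0.20 in HNF4G-KO, and 0.05, 0.21, 0.09, 0.18 and 0.09 in HNF4G-KO + FOXA1-OE. All of these groups overlapped. CYP26B1 reached at most 0.156 RPKM (16 reads, HNF4G-KO metastasis 2) and was at 0 reads in control tumor 3, FOXA1-OE tumor 3 and HNF4G-KO + FOXA1-OE tumor 1. A count of 0 allows up to 3 reads, counting error only. The exact permutation p was 0.114 or more for CYP26A1 and 0.171 or more for CYP26B1 in the 7 comparisons of 2 groups. In none of them did either gene reach the smallest p that the numbers of mice allow.

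**Figure D4:**
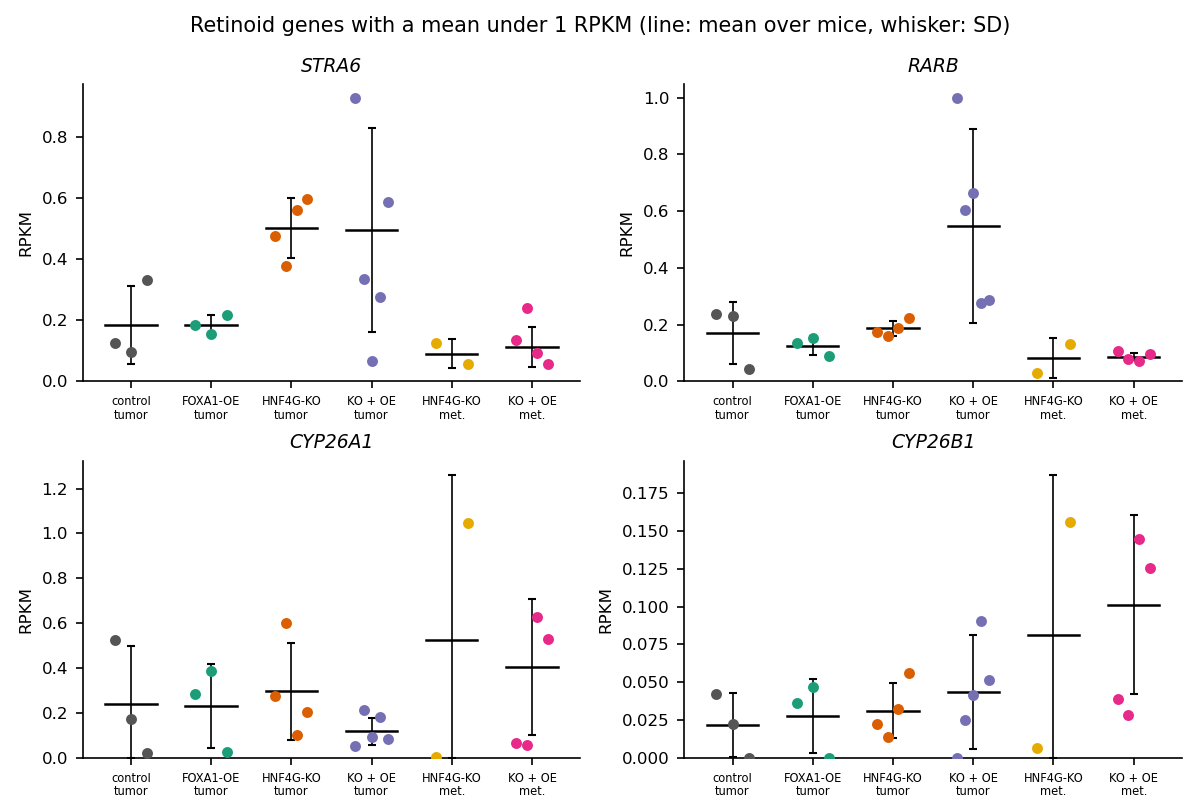
Level (RPKM, linear axes from 0 with a separate scale per gene) of STRA6, RARB, CYP26A1 and CYP26B1 in each library; points are libraries, lines are means over mice and whiskers are SD. STRA6 is above the control tumors in all 4 HNF4G-KO tumors, and RARB is highest in the HNF4G-KO + FOXA1-OE tumors.

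The rest of the pathway was read from a list of 53 other retinoid genes, of which 28 passed the filter in the primary tumors and 15 had a mean of 10 RPKM or more over the 21 libraries. This list was chosen with earlier results of these data known. Its shares and medians, here and below, are therefore a description beside those of all genes and no independent support. In HNF4G-KO against control 2 rose, 2 fell and 24 did not pass (14.3% called, against 12.2% of all genes). With only the 2 groups compared in the fit 13 of the 28 were called. The share of all genes called in that fit is not given here, so the 13 cannot be set beside the 12.2%. Both that rose oxidize retinol to retinal. RDH10, the main enzyme of that step in the embryo, was 18.5 ± 4.48 RPKM (SD, n = 3) in control and 52.7 ± 4.61 (SD, n = 4) in HNF4G-KO tumors, a difference of 1.48 ± 0.27 (log2, SE; limma adjusted p = 0.0068). RDH5 went from 1.29 to 3.26 RPKM (0.90 ± 0.19, adjusted p = 0.013). PNPLA4, which acts on retinyl esters, fell from 1.85 to 1.00 RPKM (-0.51 ± 0.13, adjusted p = 0.029), and DHRS4, a retinal reductase with near-identical neighboring copies, from 7.45 to 4.64 RPKM (-0.58 ± 0.18, adjusted p = 0.04996). RDH10 was called in all 13 alternatives and RDH5 in 12 of them, PNPLA4 in 6 and DHRS4 in 2. Without control tumor 2, the library with pancreatic transcripts, only RDH10 was still called, and 2 or 3 of the 4 were without any other single mouse.

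In HNF4G-KO + FOXA1-OE against FOXA1-OE, which shares no tumor with that comparison, 5 rose, 2 fell and 21 did not pass (25.0% called, against 7.86% of all genes), and with only the 2 groups compared 1 was called. RDH10 rose again, from 17.9 ± 6.57 to 51.3 ± 15.8 RPKM (1.49 ± 0.27, limma adjusted p = 0.0053), as did RDH5 (0.70 ± 0.19, adjusted p = 0.039). DHRS9, a further retinol dehydrogenase, went from 22.8 to 70.2 RPKM (1.44 ± 0.30, adjusted p = 0.011). AKR1B10, which reduces retinal, had the largest difference, from 9.99 ± 4.20 to 52.3 ± 12.04 RPKM (2.32 ± 0.32, adjusted p = 0.0011), and FABP5, which can carry retinoic acid, went from 1.84 to 5.41 (1.15 ± 0.25, adjusted p = 0.014). PNPLA4 fell again, from 1.63 to 0.63 RPKM (-0.69 ± 0.13, adjusted p = 0.0081), as did RDH14, a retinal reductase (-0.77 ± 0.20, adjusted p = 0.035). PNPLA4 averaged 1.85 RPKM in control and 1.00 in HNF4G-KO tumors. It thus passed the filter of 1 RPKM through the tumors without HNF4G-KO, where it was high, and lay near or below it in the others. AKR1B10 was called in all 13 alternatives, DHRS9 and RDH10 in 12, FABP5 and PNPLA4 in 11, and RDH5 and RDH14 in 6. Without FOXA1-OE tumor 3, RDH5 (0.46, limma adjusted p = 0.112) and RDH14 (-0.80, adjusted p = 0.0519) were not called and the other 5 were. AKR1B10 and FABP5 have close relatives or processed copies that can share reads.

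By role, 3 of the 4 retinol dehydrogenases tested rose in that comparison and 2 of the 4 in HNF4G-KO against control, and none fell; 3.32% and 6.18% of all genes were called higher there. Of the 6 retinal reductases 1 rose and 1 fell against FOXA1-OE, and none rose and 1 fell against control. None of the 5 receptors or the 5 responsive genes tested passed in either. The median difference of the 28 genes was 0.12 and 0.22 (log2), beside 0.01 and -0.03 over all genes tested.

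HNF4G-KO + FOXA1-OE against control, which shares tumors with both comparisons, called 3 higher (RDH10 at 1.40 ± 0.27, AKR1B10 at 1.33 ± 0.32 and RDH5 at 0.71 ± 0.19) and 2 lower (PNPLA4 at -0.80 ± 0.13 and TGM2, an enzyme induced by retinoic acid, at -1.04 ± 0.27; log2, SE; limma adjusted p 0.0055 to 0.0487). That is 17.9% of the 28, against 4.7% of all genes, and with only the 2 groups compared 0 were called. PNPLA4 and RDH10 were called in 11 of 13 alternatives and the other 3 in 2 to 5, and without control tumor 2 only PNPLA4 was still called of these 5. The other comparisons called none of the 28 genes tested in each, including the 3 of metastasis against tumor. In those 3, LIPE, another gene of the list, passed the filter in place of PNPLA4, which was not tested there. By limma, 11 of the 28 had an unadjusted p under 0.05 in HNF4G-KO + FOXA1-OE against HNF4G-KO, beside 2894 of all 14269 genes. In the other comparisons without a call it was 1 to 4 of the 28. Over all genes it was there 652 and 1209 of 14269 in the primary tumors, and 1190 to 1896 of 14099 in the metastasis comparisons.

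**Figure D5:**
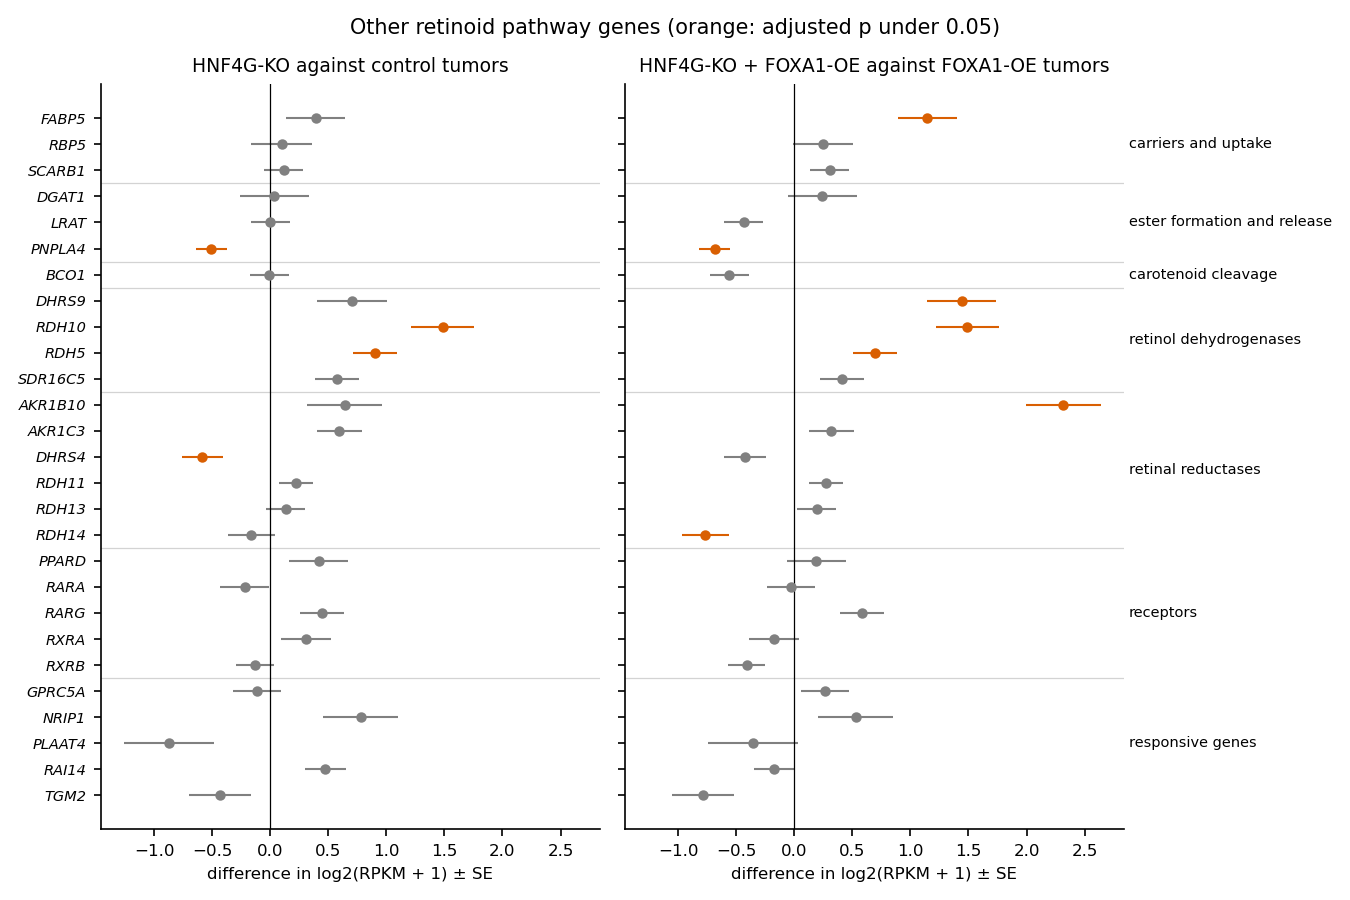
Differences in log2(RPKM + 1) with their SE for 27 of the 28 other retinoid genes tested, grouped by role, in HNF4G-KO against control tumors (left) and HNF4G-KO + FOXA1-OE against FOXA1-OE tumors (right), which share no samples; orange marks an adjusted p under 0.05. The called retinol dehydrogenases lie to the right in both panels and PNPLA4 to the left.

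Several other genes of the list were abundant and were not called in any comparison. Over the 21 libraries AKR1C3 ran from 46.5 to 152, SDR16C5 from 15.7 to 35.6, RDH11 from 17.99 to 32.6, DGAT1 from 18.5 to 57.6 and SCARB1 from 14.5 to 31.4. Of the receptors, RARG ran from 14.8 to 33.9 RPKM, RARA from 7.66 to 20.6 and PPARD from 6.62 to 23.5, all far above RARB. Among responsive genes, PLAAT4 ran from 39.1 to 216 RPKM and GPRC5A from 30.2 to 72.6. TTR, the plasma partner of RBP4, was at most 0.19 RPKM.

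The genes whose level followed each member most closely were found by Pearson's r of log2(RPKM + 1) over the 21 libraries, among the 14229 genes that averaged 1 RPKM or more, as a description only. The libraries share genotypes and mice, so they are not independent points. For RBP4 they were 2 genes without a symbol (r of 0.965 and 0.964), MYO1A, a brush-border myosin (0.962), BMP7 (0.952) and CYP27B1, which activates vitamin D (0.949). For CRABP2 they included GSTM3 (0.932), LCN2 (0.893), SMS (0.879) and SRI (0.864). The closest to DHRS3 were SERINC2 (0.847), CA11 (0.836) and PNPLA2 (0.826), to ALDH1A1 COLCA1 (0.910), POU2AF3 (0.876) and ADAMTSL4 (0.871), and to ALDH1A3 SERPINA5 (0.928), ECI2 (0.924) and DGLUCY (0.918). No member was among the closest genes of another member. Between members, r ran from -0.769 (ALDH1A3 and RBP4) to 0.467 (ALDH1A1 with RBP4, and ALDH1A3 with CRABP2).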

How the data were processed

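The members and gene lists were chosen with earlier results of these data known. Total RNA of 21 HPAF-II xenograft samples was sequenced after TruSeq stranded mRNA preparation. The deposited values are RPKM per gene, made by the authors from single-end reads with STAR 2.6.1a and featureCounts 2.0.4 (submitters' processing notes). The sources disagree on the human build (GRCh37 in the methods, GRCh38 in the notes), and how mouse reads were handled is not given in the sources used here. Of 58719 gene identifiers, 58205 matched a symbol in GENCODE 44.

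RPKM are not counts, so the count model of the study's methods was replaced by limma 3.58.1 (R 4.3.3) on log2(RPKM + 1), with an intensity trend, keeping genes that averaged 1 RPKM or more. The primary tumors shared 1 fit and the HNF4G-KO tumors and metastases another. Steps of 1 or 2 reads in low values gave each library's depth (at least 99.8% of low values were whole reads within 0.05), and from it the reads of the low genes. Single members were compared by 2-sided exact permutation tests (scipy 1.17.1). The limma code was tested on simulated data. Members were not tested where the rule that listed them plainly used the samples compared. RBP4 was tested only in HNF4G-KO + FOXA1-OE against FOXA1-OE, whose tumors may also have entered the rule. CRABP2 was tested only in FOXA1-OE against control. Named pathway genes were those called (at most 6 per comparison by size) or with a mean of 10 RPKM or more; the 5 genes most correlated with RBP4 and CRABP2 and the 3 with other expressed members were also named. PNPLA4 against FOXA1-OE, the seventh in size there, and TTR were named after their values were seen. A pathway gene and a gene correlated with CRABP2 that the rule names are not reported here.

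Tumor and metastasis of the same mouse deviated together in 3 of 4 mice (r of 0.248, 0.303, 0.271 and -0.026). The settings varied were the pseudocount (0.1), the RPKM filter (none), equal sample medians, only the groups compared, samples of a mouse kept separate, replicate number or mouse as a block, each mouse left out, and metastases in spleen or fat left out. Replicates are mice injected with the same cells, so p-values cover the spread between mice. The 8 libraries of mouse KPC lines are a separate table, used for levels only; 12 of its columns match no sample and were not used.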

Additional observations from a re-analysis of the deposited data

Results flagged for a closer look

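Among the 18 sets of 4 mice checked (9 members in the HNF4G-KO and in the HNF4G-KO + FOXA1-OE tumors), 3 had 1 mouse far from the others, where chance would flag about 1 in 20 sets. HNF4G-KO tumor 1 was the high one for RBP4 (52.6 RPKM, a gap of 0.885 of the range) and for ALDH1A1 (57.4 RPKM, 0.946 of the range). HNF4G-KO + FOXA1-OE tumor 4 was the high one for ALDH1A3 (4.69 RPKM, 0.869 of the range). Without HNF4G-KO tumor 1 the RBP4 difference against control was the lowest of the 7 obtained by leaving out 1 mouse, 2.18 (log2), and that of ALDH1A1 was 0.27.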

How the results depend on the processing

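HNF4G-KO against control called 0 of the 3 members tested (1 in the main analysis) with a pseudocount of 0.1, with no RPKM filter and with the replicate number as a block, and 0 to 1 when 1 mouse was left out. HNF4G-KO + FOXA1-OE against FOXA1-OE called 1 of 4 (2 in the main analysis) with the replicate block and with only the 2 groups compared, and 1 to 2 when 1 mouse was left out. HNF4G-KO + FOXA1-OE against control called 0 (1 in the main analysis) with the replicate block and with only the 2 groups, and 0 to 1 when 1 mouse was left out. RBP4 was called in HNF4G-KO + FOXA1-OE against FOXA1-OE under all 13 alternatives (3.16 to 3.70 on the log2 scale, limma adjusted p 1.0e-05 to 0.011). These tumors may have entered its choice, so that is no independent support. The losses were of ALDH1A3, whose direction held in all 3 comparisons. Of the 28 pathway genes, HNF4G-KO against control called 13 (4 in the main analysis) with only the 2 groups and 1 to 3 when 1 mouse was left out. HNF4G-KO + FOXA1-OE against FOXA1-OE called 4 (7 in the main analysis) with the replicate block, 1 with only the 2 groups and 5 to 8 without 1 mouse. HNF4G-KO + FOXA1-OE against control called 2 (5 in the main analysis) with no RPKM filter, 1 with the replicate block, 0 with only the 2 groups and 1 to 4 without 1 mouse. The shares of all genes called under these settings are not given here, so the counts show only how calls moved. The cause of these changes was not tested.

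Directions that changed were all of differences that did not pass. With equal sample medians ALDH1A1 in HNF4G-KO + FOXA1-OE against HNF4G-KO turned from -0.0476 to 0.0456 (log2) and the interaction of DHRS3 from -0.00553 to 0.0556. Leaving out 1 mouse spread ALDH1A1 in the first from -0.26 to 0.34, the interaction of DHRS3 from -0.25 to 0.39 and that of ALDH1A1 from -0.0435 to 0.99. In FOXA1-OE against control the spread was -0.37 to 0.12 for CRABP2, -0.00161 to 0.63 for DHRS3 and -0.37 to 0.0767 for ALDH1A3, and in HNF4G-KO + FOXA1-OE against FOXA1-OE it was -0.0332 to 0.60 for DHRS3. In metastasis against tumor ALDH1A3 spread from -1.27 to 0.13 (HNF4G-KO) and -0.46 to 0.24 (both genotypes). RBP4 in metastasis against tumor, both genotypes, was 0.34 and moved to 0.60 without the metastases in fat. The replicate numbers only name the mice of the primary tumors (r of same-numbered mice from -0.274 to 0.631). The mouse as a block changed no call of a member or pathway gene. Small groups (2 to 4 mice) limit all comparisons, and members under 1 RPKM rest on 0 to 368 reads.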

Other observations

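In 8 libraries of mouse KPC pancreatic cancer lines, a separate table of RPKM, Stra6 was 8.20 to 30.3 RPKM and Crabp2 0.13 to 0.45, while Dhrs3 (20.96 to 49.2), Aldh1a1 (2.62 to 31.7) and Aldh1a3 (5.17 to 8.82) were all detected. Cyp26a1 was at most 0.14 RPKM, Rarb at most 0.47 and Cyp26b1 at most 1.79. Rbp4 was 146, 128, 11.7 and 7.99 RPKM in replicates 1 to 4 labelled as the tumor line and 10.2, 6.87, 167 and 140 in those labelled as the liver metastasis line. Each label therefore held 2 high and 2 low libraries, and no comparison of the lines was made.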
